A study of Mus musculus with 27 samples.

Results

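MM HepOrgs cultured for 1 week were compared with freshly isolated mouse hepatocytes over all genes. The comparison used 6 of the 27 bulk RNA-seq libraries mapped to their labels, 3 of passage 2 HepOrgs in MM for 7 days and 3 of isolated hepatocytes, chosen by their sample titles. HepOrgs are organoids grown in Matrigel from primary adult hepatocytes, and the study set them beside the fresh cells to ask how much of the hepatocyte program the cultures keep. All 6 libraries are of C57BL/6 background, and the study used mice of both sexes, 8 to 25 weeks old. The MM HepOrgs were WT. They had first been expanded in HM-Wnt, a growth medium with gastrin, EGF, HGF, FGF7, FGF10, RSPO1, nicotinamide, the Wnt pathway activator CHIR, the TGF-beta receptor inhibitor A83-01, a ROCK inhibitor and WNT3a conditioned medium. At passage 2 they were moved to MM, which keeps B27, N-acetylcysteine, the ROCK inhibitor and Wnt conditioned medium (30%) and leaves out the growth factors, CHIR and A83-01. The fresh hepatocytes were isolated by perfusion and never cultured. All 3 fresh libraries are titled WT, but the genotype label of replicate 3 is MDR2-het. Mdr2 is another name of Abcb4, which stood at 116 CPM (read counts scaled to library size) in that library against 264 and 215 in the other fresh libraries.

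Hepatocytes make most plasma proteins, detoxify drugs and ammonia, keep blood glucose steady and secrete bile through canaliculi on their apical side. They divide this work along the lobule: periportal cells carry most urea synthesis and gluconeogenesis, while pericentral cells, which receive Wnt signals, hold glutamine synthetase and many cytochrome P450 enzymes. Hepatocytes taken out of the liver are known to lose parts of this program in culture and to gain features of fetal liver, bile duct epithelium and injured tissue.

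The MM HepOrg libraries held between 41178058 and 58815016 counts and the fresh libraries between 34082074 and 53113534. Replicates of 1 group differed by more than sampling noise. MM HepOrg replicate 3 and fresh replicate 2 stood apart within their groups, and several results are given with and without them. Mitochondrially encoded transcripts took 4.11% to 5.03% of counts in the fresh libraries and 1.99% to 2.50% in the MM HepOrgs. Apart from the genotype label of fresh replicate 3, the labels do not say whether the replicates came from separate animals or cultures. The p-values measure the spread between libraries within the groups fitted together, which may be technical. Time outside the liver, passage, Matrigel and medium all differ between the groups together and cannot be told apart. All levels below are CPM scaled by the trimmed mean of M values (TMM), and every log2 fold change is of MM HepOrgs over fresh hepatocytes, with its standard error (SE), from edgeR's quasi-likelihood test with Benjamini-Hochberg adjustment. A gene is said to rise or fall only where its adjusted p was under 0.05. Counts and medians of a gene list cover its members with enough counts to test and describe those members alone, since a gene near 0 in 1 group could pass the count filter only through the other.

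**Figure D1:**
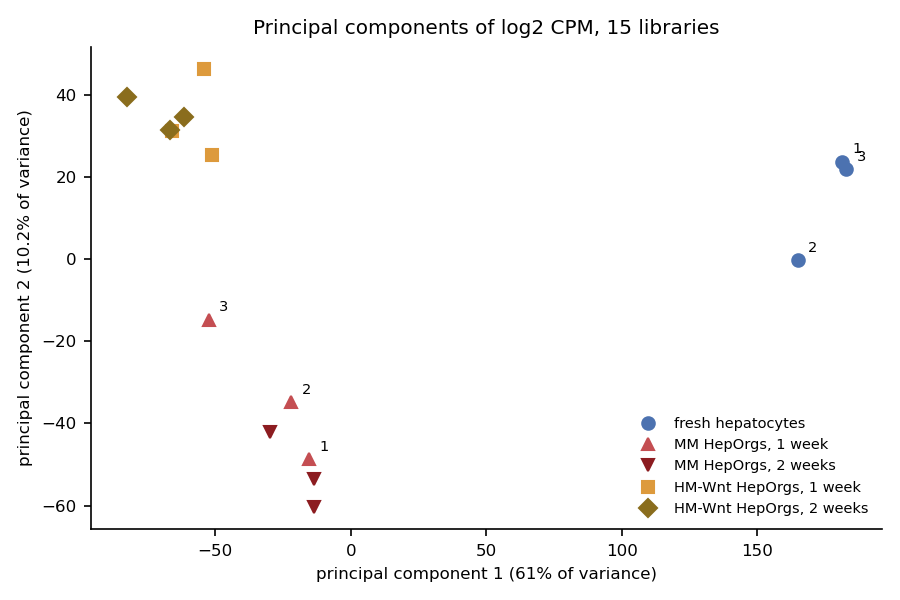
Principal components of log2 CPM in the 15 libraries of fresh hepatocytes and HepOrgs; the x axis is component 1 (61% of the variance), the y axis component 2 (10.2%), and numbers mark the replicates of the groups compared. The 3 fresh libraries lie at 165 to 183 on component 1 and every HepOrg library lies below 0; MM HepOrg replicate 3 (-52.4, -14.7) lies between the other MM and the HM-Wnt HepOrgs.

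Of 13405 genes tested, 2876 (21.5%) rose in MM HepOrgs and 2850 (21.3%) fell, with a median log2 fold change over all genes of 0.004. The counts of risers and fallers in each list below are to be read beside these shares. Changes were often large: 220 genes rose and 196 fell by at least 5 on the log2 scale. The groups did not overlap for 54.3% of all genes tested. No count was found in any fresh library for 196 of the genes tested, and in any MM HepOrg library for 20. By limma on log2(TPM + 1) of the deposited TPM values, over 9671 genes with a TPM of at least 1 in 3 libraries, the median was 0.47, and 4492 genes rose and 911 fell. With all 27 libraries in the fit, 1224 rose and 775 fell.

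The 12 with the highest fold change among abundant genes with no overlap between groups were Cdh17, Ly6d, Slc7a11, Sprr1a, A2m, Psrc1, Bmp8b, Plat, Cpe, Gpc3, Plod2 and Cd24a. They include Cdh17, an adhesion cadherin of intestinal epithelium, and Sprr1a, a cornified envelope protein of squamous epithelium. The 12 lowest were Car3, Cyp2f2, Cyp26a1, Pck1, Sds, Sult2a8, Igfbp2, Ugt2a3, Hal, Otc, Ces3b and Slco1a1. The promoters of the first 3 genes at each end that the RefSeq table holds are shown because they stand at the ends of the ranking; Psrc1 has 2 promoters in the table, of which 1 is shown. Each runs from 250 bases before to 50 bases after the annotated start and is written 5′ to 3′ on the strand of its gene, with positions found by exact match to GRCm39. Capitals mark matches on either strand to the AP-1 motif TGANTCA, the TEAD motif GGAATG, the HNF4 motif CAAAGTC, the HNF1 core GTTAAT or the core promoter motif TATAAA.
Slc7a11 (chr3:50398013-50398312, minus strand): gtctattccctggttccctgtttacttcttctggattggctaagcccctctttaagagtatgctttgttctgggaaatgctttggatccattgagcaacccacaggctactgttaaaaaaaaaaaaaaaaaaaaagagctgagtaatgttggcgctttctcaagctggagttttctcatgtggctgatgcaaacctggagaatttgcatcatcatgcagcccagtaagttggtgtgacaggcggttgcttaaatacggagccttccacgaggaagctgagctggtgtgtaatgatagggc
Sprr1a (chr3:92393139-92393438, minus strand): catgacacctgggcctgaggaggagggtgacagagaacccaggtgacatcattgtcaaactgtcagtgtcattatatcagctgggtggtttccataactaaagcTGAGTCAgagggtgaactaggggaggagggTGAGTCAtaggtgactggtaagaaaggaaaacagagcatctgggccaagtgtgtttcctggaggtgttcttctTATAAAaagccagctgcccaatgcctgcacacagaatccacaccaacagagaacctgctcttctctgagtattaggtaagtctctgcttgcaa
Psrc1 (chr3:108290870-108291169, plus strand): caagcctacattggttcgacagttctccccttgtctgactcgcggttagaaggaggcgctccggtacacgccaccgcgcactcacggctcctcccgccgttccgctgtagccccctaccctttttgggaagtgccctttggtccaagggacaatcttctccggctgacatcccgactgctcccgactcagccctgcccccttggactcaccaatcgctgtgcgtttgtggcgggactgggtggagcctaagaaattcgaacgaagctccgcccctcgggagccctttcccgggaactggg
Cyp2f2 (chr7:26819130-26819429, plus strand): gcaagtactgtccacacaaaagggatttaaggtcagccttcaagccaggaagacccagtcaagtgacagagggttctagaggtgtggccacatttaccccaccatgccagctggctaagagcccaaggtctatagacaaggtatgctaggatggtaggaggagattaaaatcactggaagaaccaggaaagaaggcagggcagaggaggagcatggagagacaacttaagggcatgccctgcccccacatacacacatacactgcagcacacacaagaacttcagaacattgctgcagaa
Cyp26a1 (chr19:37686006-37686305, plus strand): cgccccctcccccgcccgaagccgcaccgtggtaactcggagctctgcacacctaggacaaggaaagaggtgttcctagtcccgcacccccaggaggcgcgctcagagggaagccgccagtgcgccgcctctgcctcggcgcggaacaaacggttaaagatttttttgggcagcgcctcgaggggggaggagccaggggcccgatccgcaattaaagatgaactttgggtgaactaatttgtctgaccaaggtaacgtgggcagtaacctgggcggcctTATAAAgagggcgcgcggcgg
Pck1 (chr2:172994616-172994915, plus strand): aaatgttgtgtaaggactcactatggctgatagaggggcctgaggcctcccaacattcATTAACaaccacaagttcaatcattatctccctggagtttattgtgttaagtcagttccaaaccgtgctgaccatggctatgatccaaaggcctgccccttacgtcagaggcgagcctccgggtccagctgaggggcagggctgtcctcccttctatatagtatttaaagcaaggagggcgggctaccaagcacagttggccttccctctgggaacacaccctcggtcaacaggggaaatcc
Sprr1a held TGANTCA at 146 and at 116 bases before its start and TATAAA 43 bases before it. Pck1 held GTTAAT on the other strand 192 bases before its start, and Cyp26a1 held TATAAA 29 bases after its start. No match lay in the windows of Slc7a11, Psrc1 and Cyp2f2. Of 32851 promoters in the table, TGANTCA is in 7.8%, GGAATG in 14.7%, CAAAGTC in 4.4%, GTTAAT in 7.1% and TATAAA in 13.6%. The matches are descriptions of letters in these windows.

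Car3, a carbonic anhydrase of liver, fat and muscle (chr3:14928489-14937595, GRCm39), fell furthest. It stood at 11583, 7961 and 12779 CPM in the fresh libraries, and only 2 reads of it were counted in the 3 MM HepOrg libraries together. The ratio was 836832, with an exact Poisson counting interval of 231659 to 6909988 that covers counting error only. Cyp2f2, a P450 of periportal hepatocytes and lung, stood at 3597, 4316 and 3430 CPM in fresh cells and at 0.579, 1.53 and 0.122 CPM in MM HepOrgs (-12.26 ± 1.03, adjusted p = 1.66e-06). Cyp26a1, which breaks down retinoic acid, held 69.9, 895 and 53.6 CPM in fresh cells, highest in replicate 2, and 6 reads in all MM HepOrg libraries together. At the other end, Cdh17 (chr4:11758147-11817895) had no count in any fresh library and 123, 111 and 152 CPM in MM HepOrgs, at least 1417-fold higher against a floor of 3 counts per library. Ly6d, a GPI-anchored surface protein of epithelial and lymphoid cells, went from 0.264, 0.903 and 0.359 CPM to 1202, 723 and 1123 CPM (10.90 ± 0.48, adjusted p = 5.28e-08). Slc7a11, the cystine importer of the antioxidant response, went from 0.0959, 0 and 0.0276 CPM to 43.2, 38.3 and 189 CPM, highest in replicate 3. Sprr1a rose in all MM HepOrgs but unevenly, to 10.7, 46.4 and 101 CPM, from 1 read in the fresh libraries together.

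**Figure D2:**
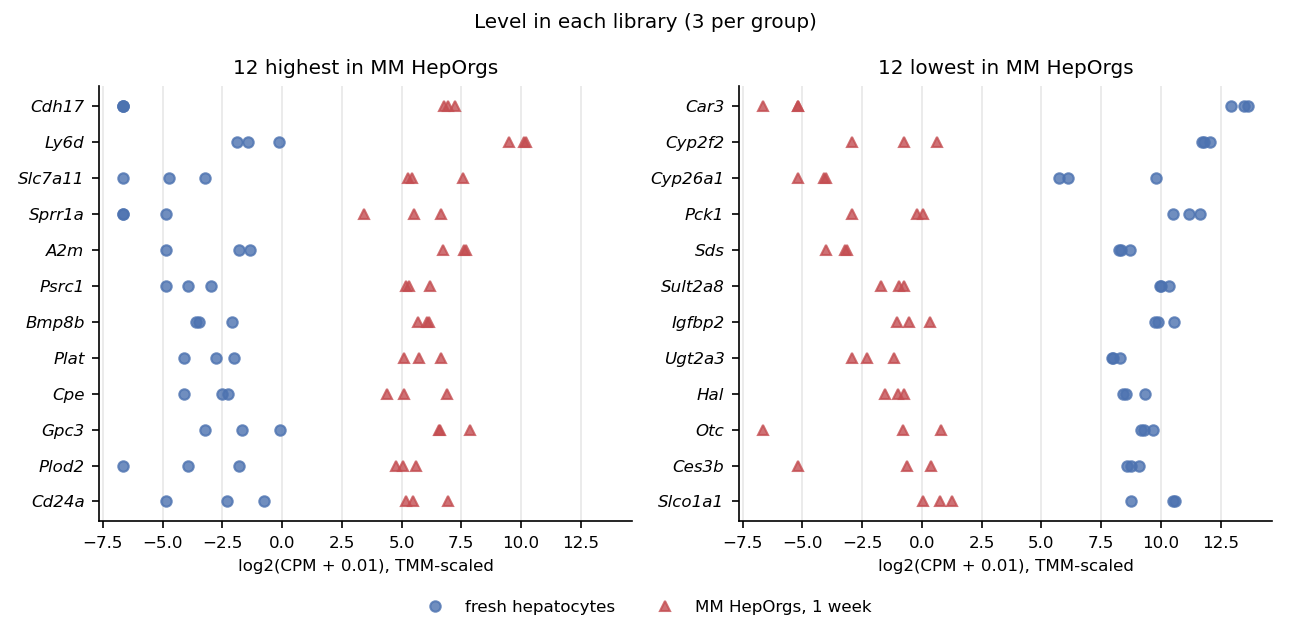
Level of the 12 highest and the 12 lowest genes in each library, on the x axis as log2(CPM + 0.01); circles are the 3 fresh hepatocyte libraries and triangles the 3 MM HepOrg libraries. Cdh17 lies at the floor in all fresh libraries, and Car3 lies between 7961 and 12779 CPM in the fresh libraries and at or near 0 in the MM HepOrgs.

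The transcription factors that set hepatocyte identity fell moderately and none rose: 13 of 22 fell, with a median log2 fold change of -0.90. Hnf4a, the nuclear receptor at the centre of this network, stood at 347, 307 and 235 CPM in fresh cells and at 162, 150 and 110 CPM in MM HepOrgs (-1.07 ± 0.22, adjusted p = 0.00157). Its groups did not overlap. Larger falls were seen in Nr0b2, a bile acid-induced repressor (-3.93 ± 0.45, adjusted p = 2.09e-05), and in Cebpa, a regulator of metabolic genes (-3.02 ± 0.20, adjusted p = 2.29e-07). Cebpa held 192, 145 and 168 CPM in fresh cells and a narrow 20.9, 21.97 and 19.2 CPM in MM HepOrgs. Nr1i3, the xenobiotic receptor CAR, also fell (-2.26 ± 0.43, adjusted p = 9.82e-04). In bulk samples, fewer cells of a type and less RNA per cell cannot be told apart, here or in the results that follow.

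Of 17 carrier proteins and protease inhibitors tested, 11 fell and 1 rose (median -0.90), and 6 fell without MM HepOrg replicate 3 or fresh replicate 1 and 7 without fresh replicate 2 or 3. Without MM HepOrg replicate 3, 3 rose, and without fresh replicate 2, 2 rose. The riser with all libraries was Hp, haptoglobin, at 4576, 5871 and 2938 CPM in fresh cells and at 36278, 29815 and 12281 CPM in MM HepOrgs (2.55 ± 0.47, adjusted p = 7.94e-04). Alb, albumin, fell from 30659, 37850 and 15391 CPM to 12633, 8965 and 8719 CPM (-1.47 ± 0.40, adjusted p = 0.00944), a call lost by limma on log2(TPM + 1) (-0.77, adjusted p = 0.134). Trf, transferrin, was the top gene by counts in all 6 libraries and did not pass the test (0.27 ± 0.27, adjusted p = 0.447). Serpina1e, an alpha-1 antitrypsin paralog, had 24248 CPM in fresh replicate 2 against 201 and 205 in the other fresh libraries, and 120, 393 and 1.54 CPM in MM HepOrgs. Its log2 fold change was -5.58 ± 2.07 (adjusted p = 0.0437) and -0.25 without that library (adjusted p = 0.902). Such paralogs share sequence, and how their reads were divided is uncertain. Ttr, the thyroid hormone carrier transthyretin, held 12952, 11891 and 9456 CPM in fresh cells and 3415, 5103 and 430 CPM in MM HepOrgs (-1.94 ± 0.68, adjusted p = 0.0339), and its call was lost without fresh replicate 1, 2 or 3 or MM HepOrg replicate 1 (adjusted p up to 0.0751). MM HepOrg replicate 3 was the lowest MM HepOrg library for Hp and Ttr.

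Among apolipoproteins and lipoprotein assembly genes, 11 of 17 fell and 2 rose (median -1.11). Apoa4, an apolipoprotein of intestine and liver, rose from 536, 664 and 635 CPM to 3537, 3141 and 2917 CPM (2.39 ± 0.19, adjusted p = 1.10e-06). Apoa5, which activates plasma triglyceride clearance, fell from 4870, 1697 and 3901 CPM to 233, 111 and 105 CPM (-4.54 ± 0.58, adjusted p = 4.86e-05). Apoa1, the main HDL protein, held 19662, 22297 and 22598 CPM in fresh cells and 5935, 9366 and 969 CPM in MM HepOrgs, lowest again in replicate 3 (-1.99 ± 0.60, adjusted p = 0.0166). Apob, the scaffold of VLDL, fell by 1.22 ± 0.20 on the log2 scale (adjusted p = 4.19e-04).

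Among coagulation factors the largest falls were in Klkb1 and F11. In this list 12 of 19 fell and 1 rose (median -0.79), and 8 fell when MM HepOrg replicate 3 was left out. Klkb1, plasma prekallikrein, went from 95.0, 81.0 and 101 CPM to 0.351, 0.316 and 0.175 CPM (-8.15 ± 0.45, adjusted p = 9.03e-08). F11, factor XI, fell by 5.21 ± 0.47 on the log2 scale (adjusted p = 3.10e-06). The fibrinogen chain Fgb did not pass the test, at 9800, 8800 and 10907 CPM in fresh cells and 17600, 16348 and 8696 CPM in MM HepOrgs. Cpb2, the fibrinolysis inhibitor TAFI, rose by 1.63 ± 0.30 (adjusted p = 8.06e-04). Of 20 complement genes 8 fell and 1 rose (median -0.51), and 6 fell without MM HepOrg replicate 3 (median -0.17). The terminal pathway gene C8b fell (-4.80 ± 0.61, adjusted p = 4.81e-05) and C3 did not pass the test (0.36 ± 0.37, adjusted p = 0.451).

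Acute phase proteins, which the liver secretes in inflammation, had other counts: 8 of 19 rose and 3 fell (median 1.84), and none fell without MM HepOrg replicate 1 or fresh replicate 3. Lcn2, an iron siderophore-binding protein, went from 4.39, 21.1 and 3.45 CPM to 1756, 2342 and 1121 CPM (7.50 ± 0.75, adjusted p = 7.01e-06). Orm2, an orosomucoid, went from 8.65, 116 and 4.83 CPM to 3774, 3346 and 1178 CPM (6.00 ± 1.12, adjusted p = 9.27e-04). Fresh replicate 2 was the highest fresh library for both and still lay below every MM HepOrg library. Saa1, serum amyloid A, varied within both groups, at 122, 815 and 112 CPM in fresh cells and 1813, 1804 and 147 CPM in MM HepOrgs. It did not pass the test (adjusted p = 0.128) and did so without MM HepOrg replicate 3 (adjusted p = 0.0432) or without fresh replicate 2 (adjusted p = 0.0145). Hamp, the iron hormone hepcidin, fell from 1362, 173 and 974 CPM to 21.5, 2.56 and 148 CPM (-3.86 ± 1.35, adjusted p = 0.0345), a call lost without MM HepOrg replicate 1 or 2 or fresh replicate 1 or 3 (adjusted p up to 0.105). Its log2 fold change was -6.09 without MM HepOrg replicate 3.

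Nitrogen metabolism was widely lower. Of 12 urea cycle and ammonia genes, 11 fell and none rose (median -3.62), and 11 fell with any 1 of the 6 libraries left out. Cps1, the first enzyme of the cycle (chr1:67161988-67270418), stood at 3792, 4807 and 3448 CPM in fresh cells and at 5.81, 12.6 and 2.92 CPM in MM HepOrgs (-9.13 ± 0.95, adjusted p = 8.98e-06). Otc, the second enzyme (chrX:10118503-10187265), stood at 622, 824 and 581 CPM against 0.561, 1.75 and 0 CPM (-9.74 ± 1.19, adjusted p = 7.89e-05). The later enzymes fell less. Ass1 kept 208, 253 and 126 CPM of 3879, 6133 and 3254 CPM (-4.50 ± 0.43, adjusted p = 4.96e-06). Arg1, which releases urea, kept 67.3, 158 and 2.34 CPM of 2547, 2341 and 1877 CPM (-4.89 ± 1.38, adjusted p = 0.0120), with replicate 3 far below the other MM HepOrg libraries. Gls2, liver glutaminase, fell by 7.95 ± 0.56 on the log2 scale (adjusted p = 4.51e-07). Glul, glutamine synthetase, was the only member that did not pass, at 83.2, 206 and 129 CPM in fresh cells and 108, 84.4 and 174 CPM in MM HepOrgs (-0.19 ± 0.37, adjusted p = 0.701).

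Amino acid breakdown fell with it, in 26 of 27 genes tested and with none rising (median -3.27). Sds, serine dehydratase, went from 423, 324 and 307 CPM to 0.0526, 0.0973 and 0.105 CPM (-11.39 ± 0.65, adjusted p = 1.21e-07). Hal, histidase, went from 368, 654 and 339 CPM to 0.579, 0.487 and 0.332 CPM (-9.79 ± 0.72, adjusted p = 5.52e-07). The opposite direction, serine synthesis, was among the highest genes of the ATF4 list described further on.

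Glucose metabolism changed isoforms. Of the liver's gluconeogenic and glucose-handling genes 9 of 15 fell and 1 rose (median -0.95), whereas 16 of 20 general glycolytic genes rose and none fell (median 1.35). Pck1, the cytosolic enzyme that commits carbon to glucose, went from 3217, 2290 and 1479 CPM to 0.859, 1.02 and 0.122 CPM (-11.69 ± 0.93, adjusted p = 1.10e-06). Pck2, its mitochondrial counterpart, went from 2.95, 4.40 and 2.24 CPM to 82.2, 39.7 and 102 CPM (4.53 ± 0.48, adjusted p = 1.05e-05). Fbp1, the last cytosolic regulatory step, fell by 0.95 ± 0.27 (adjusted p = 0.0116), a call lost without MM HepOrg replicate 2 (adjusted p = 0.051). Aldoa, the general aldolase, rose by 1.77 ± 0.23 (adjusted p = 4.99e-05). Pfkp, the platelet phosphofructokinase, went from 0.503, 3.14 and 1.44 CPM to 290, 264 and 414 CPM (7.57 ± 0.58, adjusted p = 8.07e-07). Pkm, the non-hepatic pyruvate kinase, went from 2.78, 12.6 and 8.56 CPM to 491, 461 and 825 CPM (6.21 ± 0.53, adjusted p = 1.77e-06). The lactate exporter Slc16a3 and the hexokinase Hk2 rose by 7.30 ± 0.97 and 5.03 ± 0.59, and both were highest in MM HepOrg replicate 3.

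Of 48 tested members of cytochrome P450 families 1 to 4, 29 fell and 5 rose (median -2.39), and of 37 conjugation enzymes 25 fell and 3 rose (median -1.64). Cyp2e1, which oxidises ethanol, stood at 13933, 8122 and 13218 CPM in fresh cells and at 1129, 971 and 215 CPM in MM HepOrgs (-3.93 ± 0.87, adjusted p = 0.00294). Sult2a8, a bile acid sulfotransferase, fell from 1000, 1045 and 1312 CPM to 0.509, 0.584 and 0.297 CPM (-11.11 ± 0.61, adjusted p = 8.17e-08). Cyp1a1, the classical target of the aryl hydrocarbon receptor, moved the opposite way, from 2.18, 1.37 and 1.93 CPM to 174, 200 and 68.4 CPM (6.29 ± 0.83, adjusted p = 6.86e-05). Cyp1a2, its neighbour and a pericentral enzyme, fell by 3.77 ± 0.91 (adjusted p = 0.00491). Cyp2s1, an extrahepatic epithelial P450, rose by 6.41 ± 0.60 (adjusted p = 3.97e-06), and the glutathione transferases Gsta1 and Gstm3 rose by 4.29 ± 0.88 and 2.64 ± 0.40. Many Cyp2, Ugt and Gst genes have near-identical paralogs between which reads may be split.

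Most genes of bile acid synthesis and uptake fell. Of 14 synthesis genes 13 fell and 1 rose (median -1.98), and 9 fell without MM HepOrg replicate 3 (median -1.75). Cyp7a1, the rate-limiting enzyme, held 113, 25.7 and 269 CPM in fresh cells and 16.6, 28.1 and 5.89 CPM in MM HepOrgs (-3.01 ± 0.86, adjusted p = 0.0130); the groups overlapped, and the call was lost without fresh replicate 3 or MM HepOrg replicate 3 (adjusted p of 0.0748 and 0.0516). Cyp8b1, which makes cholic acid, fell from 120, 616 and 537 CPM to 14.2, 15.9 and 5.44 CPM (-5.16 ± 0.72, adjusted p = 1.02e-04). Cyp39a1, an oxysterol hydroxylase, was the riser (2.57 ± 0.52, adjusted p = 0.00171). Of 15 sinusoidal transporters 10 fell and 1 rose (median -3.00), among them Slc10a1, the sodium-dependent bile acid importer NTCP, with 792, 933 and 857 CPM against 139, 145 and 38.6 CPM (-3.00 ± 0.67, adjusted p = 0.00301). Slco1a1, an organic anion importer, fell from 1448, 426 and 1555 CPM to 1.70, 2.36 and 1.01 CPM (-9.37 ± 0.79, adjusted p = 1.64e-06), and the basolateral exporter Abcc4 rose by 4.19 ± 0.89 (adjusted p = 0.00227). Of 11 canalicular transporters 6 fell and none rose (median -0.63). Abcb4, the phospholipid transporter MDR2, did not pass the test (0.44 ± 0.27, adjusted p = 0.199). Its value was 0.18 without fresh replicate 3, the library labelled MDR2-het (adjusted p = 0.562). Abcb11, the bile salt export pump, fell from 296, 696 and 327 CPM to 86.6, 83.3 and 36.2 CPM (-2.68 ± 0.71, adjusted p = 0.00857). Abcc2, which exports conjugates, fell by 0.54 ± 0.18 (adjusted p = 0.0249), a call lost without MM HepOrg replicate 1 or 2 or fresh replicate 1 or 2 (adjusted p up to 0.0984), and its value was 0.08 on log2(TPM + 1). Slc47a1, which extrudes organic cations, fell by 4.57 ± 0.43 (adjusted p = 3.80e-06), and Abcg5, of the sterol exporter, by 3.24 ± 0.48 (adjusted p = 1.57e-04).

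Fatty acid oxidation and ketogenesis genes fell in 19 of 26 cases and rose in 4 (median -0.86), and 11 fell without MM HepOrg replicate 3 and 10 without fresh replicate 1. Cpt1a, the gate to mitochondrial oxidation, fell by 1.31 ± 0.32 (adjusted p = 0.00516). The risers included Vnn1, a pantetheinase and PPAR-alpha target, which went from 2.59, 10.8 and 0.663 CPM to 253, 271 and 220 CPM (5.74 ± 0.73, adjusted p = 4.99e-05), and Fgf21, a fasting hormone (2.95 ± 0.70, adjusted p = 0.00457). Fatty acid synthesis genes rose in 6 of 16 cases and fell in 5 (median 0.48), with 3 lower without MM HepOrg replicate 3 or fresh replicate 1. Without fresh replicate 2, 8 rose and 4 fell (median 1.15). Scd1, the liver stearoyl-CoA desaturase, rose from 5212, 10676 and 4754 CPM to 20536, 36937 and 11899 CPM (1.75 ± 0.40, adjusted p = 0.00334), and Scd2, the isoform of brain and fetal tissue, from 1.05, 4.36 and 1.88 CPM to 270, 497 and 301 CPM (7.19 ± 0.52, adjusted p = 5.29e-07). Dgat2, which completes triglycerides, fell by 2.00 ± 0.36 (adjusted p = 6.80e-04). Of 19 cholesterol synthesis genes 1 rose and 2 fell (median -0.14), and 3 rose without fresh replicate 2. Sqle, squalene epoxidase, was the riser (1.63 ± 0.36, adjusted p = 0.00267).

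**Figure D3:**
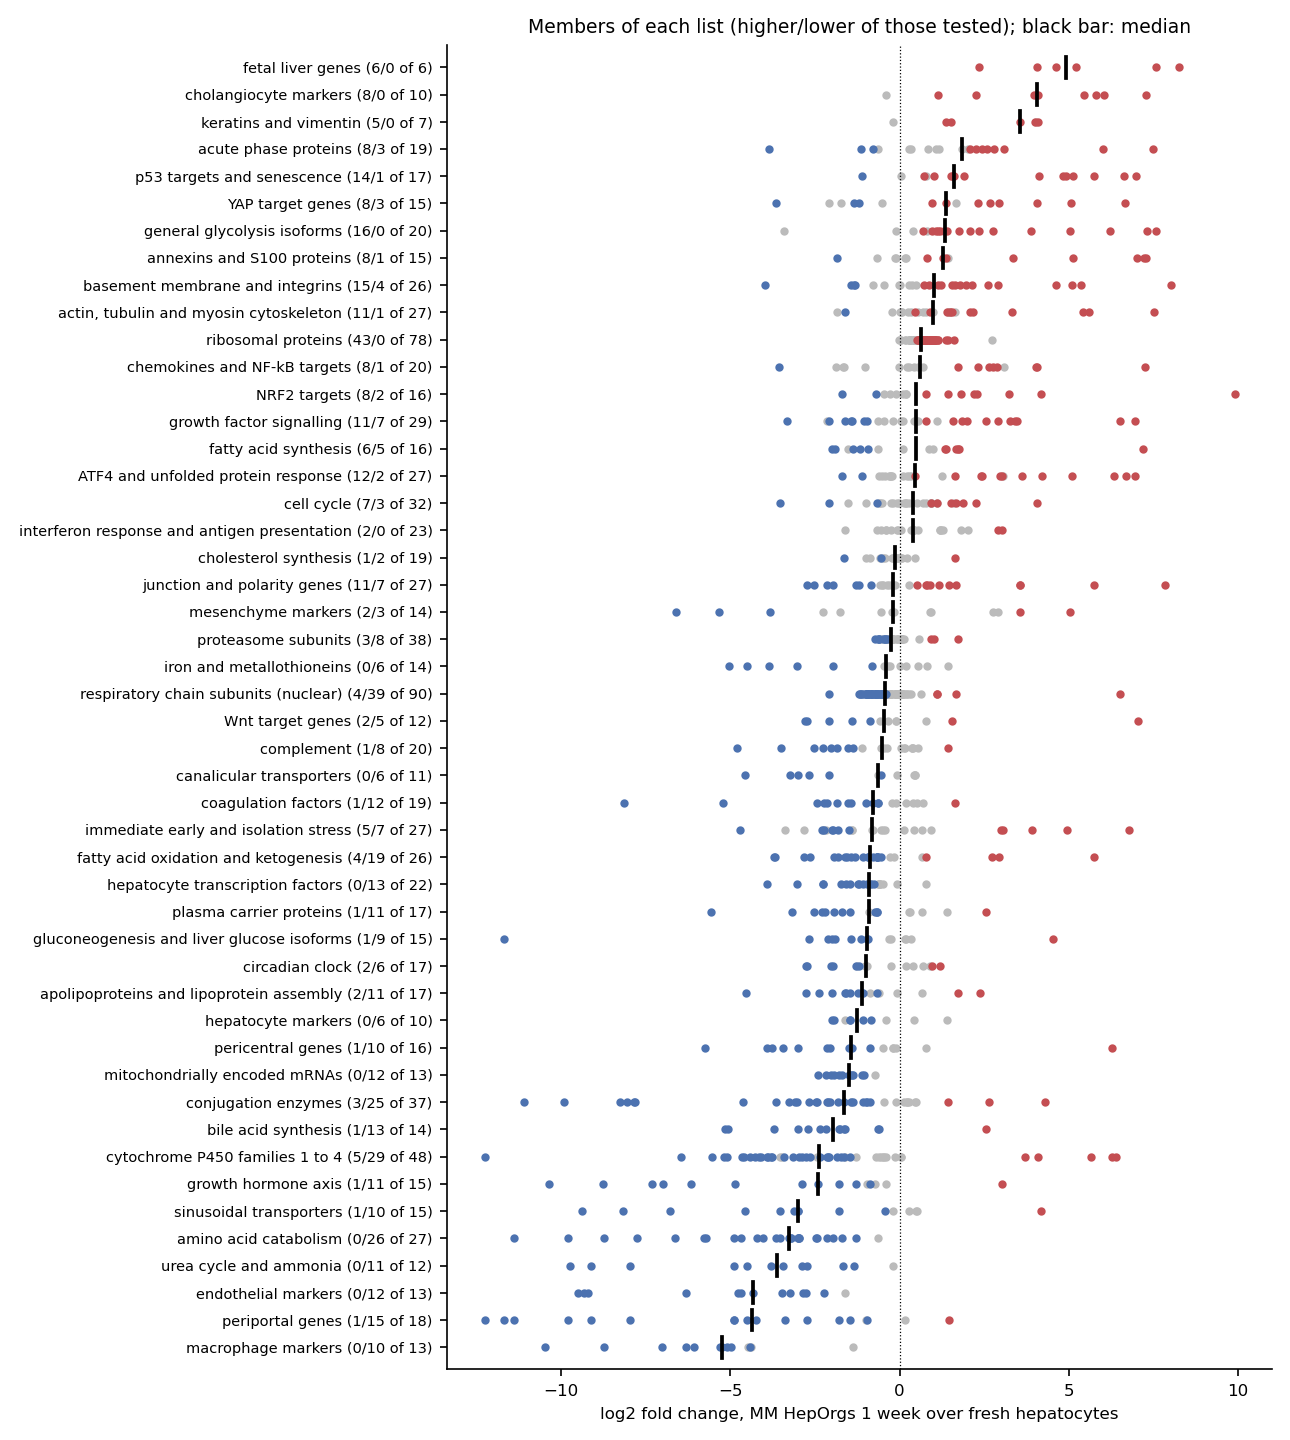
Log2 fold change of MM HepOrgs over fresh hepatocytes (x axis) for the tested members of each gene list with at least 6 of them (rows); red points rose, blue points fell, grey points did not pass the test, black bars are medians, and brackets give higher/lower of tested. Macrophage (median -5.26), periportal (-4.36) and endothelial (-4.32) lists lie lowest, and the cholangiocyte list lies at a median of 4.06. The fetal liver, cholangiocyte, endothelial and macrophage rows carry the limit of the count filter given in the text.

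Both zones of the lobule were lower. The median log2 fold change was -4.36 over 18 periportal genes, of which 15 fell and 1 rose, and -1.44 over 16 pericentral genes, of which 10 fell and 1 rose. Without MM HepOrg replicate 3, 7 pericentral genes fell (median -1.05). The difference between the lists was not tested. The periportal riser was Cdh1, E-cadherin, a general epithelial adhesion protein, at 28.0, 118 and 50.6 CPM in fresh cells and 178, 134 and 227 CPM in MM HepOrgs (1.46 ± 0.41, adjusted p = 0.0111; 2.19 without fresh replicate 2). The pericentral riser was Cyp1a1. Slc1a2, a pericentral glutamate transporter, fell from 39.9, 93.0 and 34.6 CPM to 0.930, 1.24 and 0.804 CPM (-5.76 ± 0.56, adjusted p = 5.11e-06). Of the direct Wnt targets, Axin2 was low in both groups, under 1 CPM in all 6 libraries, and did not pass (-0.10 ± 0.51, adjusted p = 0.891). Lef1, a transcription factor of the Wnt pathway, went from 4 reads in the fresh libraries together to 4.40, 4.21 and 25.2 CPM (7.06 ± 1.12, adjusted p = 2.87e-04), while Notum, a secreted Wnt inhibitor, fell by 2.74 ± 0.32 (adjusted p = 2.62e-05). Lgr5, the R-spondin receptor, held 4.10, 14.2 and 9.89 CPM in fresh cells and 3.53, 5.13 and 1.96 CPM in MM HepOrgs, with overlap (-1.40 ± 0.52, adjusted p = 0.0453), and the call was lost without MM HepOrg replicate 1 or 3 or fresh replicate 2 or 3 (adjusted p up to 0.165). In the Wnt target list of 12 tested genes 2 rose and 5 fell (median -0.46), and 2 or 3 fell with any 1 of the 6 libraries left out.

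**Figure D4:**
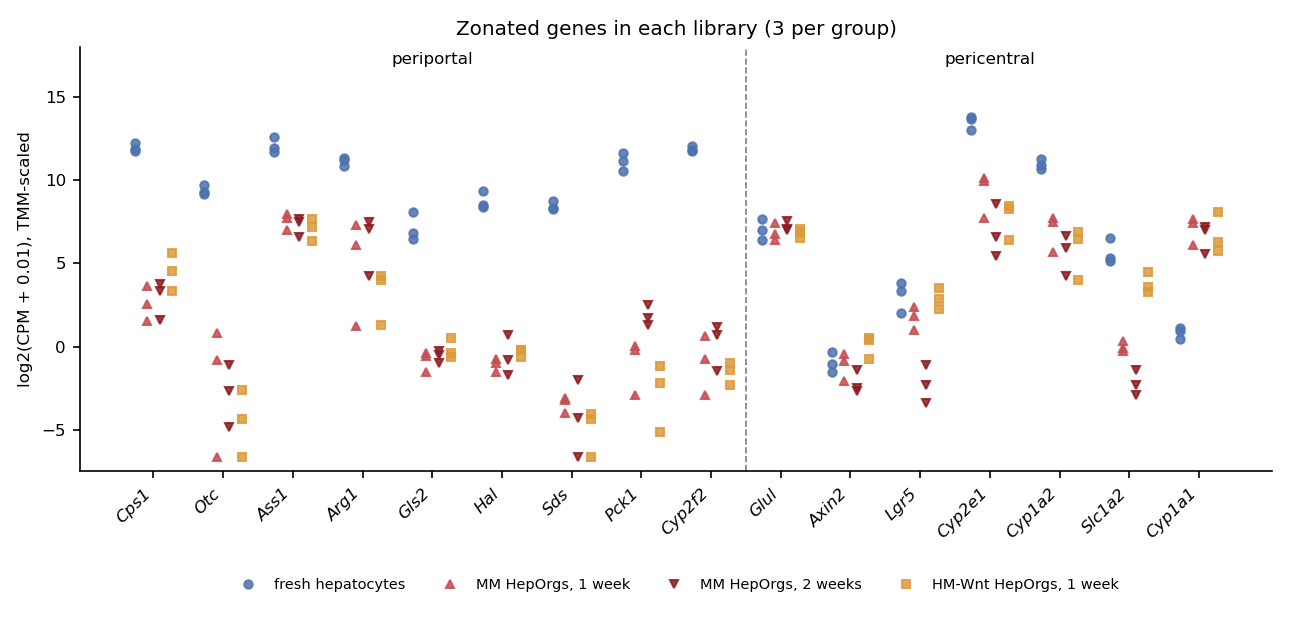
Levels of 9 periportal and 7 pericentral genes in each library on the y axis, as log2(CPM + 0.01), for fresh hepatocytes, MM HepOrgs at 1 and 2 weeks and HM-Wnt HepOrgs at 1 week (3 libraries each). Cps1, Otc, Pck1 and Cyp2f2 lie below the fresh libraries in all 3 HepOrg groups, and the Glul levels of each HepOrg group overlap those of the fresh cells.

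The growth hormone axis, by which the pituitary drives IGF1 output and sex-dependent liver genes, fell in 11 of 15 genes and rose in 1 (median -2.40). Igf1 went from 1393, 629 and 1271 CPM to 5.95, 13.2 and 6.57 CPM (-6.99 ± 0.76, adjusted p = 1.37e-05). Ghr, the hormone's receptor, fell by 2.40 ± 0.51 (adjusted p = 0.00231), and Igfbp2, an IGF-binding protein, from 950, 1483 and 867 CPM to 0.474, 1.27 and 0.682 CPM (-10.35 ± 1.23, adjusted p = 2.77e-05). Igfbp1, a related binding protein, rose by 3.02 ± 0.52 (adjusted p = 5.04e-04). The circadian list had 6 of 17 genes lower and 2 higher (median -0.99), and 6 higher without fresh replicate 1. The repressor Nr1d1 fell by 2.03 ± 0.33 (adjusted p = 3.22e-04) and Cry1 rose by 1.20 ± 0.24 (adjusted p = 0.00153). The time of day of collection is not given in the sources used here.

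Of 11 fetal liver genes listed, 6 had enough counts to test. Those near 0 in the fresh cells passed the count filter only through the cultures, so their count and median are not given. Gpc3, an oncofetal proteoglycan, stood at 0.0959, 0.942 and 0.304 CPM in fresh cells and at 97.4, 94.6 and 233 CPM in MM HepOrgs (8.26 ± 0.87, adjusted p = 1.00e-05). Afp, alpha-fetoprotein, rose from 5.06, 4.08 and 5.47 CPM to 78.7, 66.0 and 100.0 CPM (4.05 ± 0.96, adjusted p = 0.00441).

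Bile duct markers were higher in the same libraries. Of 10 cholangiocyte markers tested, 8 rose and none fell (median 4.06), and 5 rose without fresh replicate 1 or 3. Members near 0 in fresh cells, such as Krt19 and Epcam, passed the count filter only through the cultures and could be called only higher. The count and median therefore carry that limit. The summed level of the list was 42.4 to 158 CPM in fresh cells and 3129 to 8453 CPM in MM HepOrgs. Spp1, osteopontin (chr5:104582165-104589235), made up most of that sum, with 8229, 8336 and 2995 CPM against 1.56, 105 and 19.7 CPM (7.27 ± 1.21, adjusted p = 4.08e-04). Krt19, a duct keratin, reached 2.67, 10.7 and 6.99 CPM from 0, 0.746 and 0.387 CPM (4.09 ± 1.26, adjusted p = 0.0190), a call lost without fresh replicate 1 or 3 (adjusted p of 0.0539 and 0.0562). Epcam, a ductal surface marker, reached 5.95, 5.72 and 18.6 CPM from 0, 0.392 and 0.221 CPM (5.44 ± 1.15, adjusted p = 0.00216), and Sox9, the ductal transcription factor, rose by 1.15 ± 0.34 (adjusted p = 0.0158), 1.76 without fresh replicate 2 and lost without MM HepOrg replicate 2 or fresh replicate 1 or 3 (adjusted p up to 0.0564). Cftr, the duct chloride channel and a marker named after its values were seen, was at 0 in all fresh libraries and had 12, 1 and 7 reads in the MM HepOrgs. The study's methods state that cholangiocyte organoids or mesenchyme were sometimes seen in the cultures up to passage 2 and were picked out by hand. The part such cells had in these levels was not tested. Of 10 hepatocyte markers, for comparison, 6 fell and none rose (median -1.27), and 5 fell and 1 rose without MM HepOrg replicate 3 or fresh replicate 2. They summed to 63486 to 117404 CPM in fresh cells and 20014 to 63803 CPM in MM HepOrgs, lowest in replicate 3, and 1 MM HepOrg library lay above the lowest fresh library.

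Of 13 endothelial markers tested 12 fell (median -4.32; summed level 78.8 to 373 CPM in fresh cells and 6.76 to 21.8 CPM in MM HepOrgs), and of 13 macrophage markers 10 fell (median -5.26; 71.3 to 751 CPM against 7.66 to 49.1 CPM), with none rising in either list. Only 6 markers of each of these lists had enough counts to test among the HepOrg libraries alone. The others passed the count filter through the fresh libraries and could be called only lower, so both counts and medians carry that limit. Clec4f, which defines Kupffer cells, held 16.7, 117 and 68.1 CPM in fresh cells and no count in any MM HepOrg library, at least 1135-fold lower. Kdr, the endothelial VEGF receptor, was likewise at 0 in the MM HepOrgs and at least 473-fold lower. Without fresh replicate 2, the library with the highest sums, 11 endothelial and 6 macrophage markers fell, and 6 macrophage markers also fell without MM HepOrg replicate 2 or 3. Among 14 mesenchymal markers 3 fell and 2 rose (median -0.20; summed level 43.1 to 217 CPM in fresh cells and 116 to 256 CPM in MM HepOrgs). Without MM HepOrg replicate 1 or fresh replicate 1 or 3, 1 rose, and the median lay between -1.23 (without MM HepOrg replicate 1) and 0.21 (without MM HepOrg replicate 2). Colec11, of stellate cells, fell by 6.61 ± 0.71 (adjusted p = 1.17e-05), and Col1a1, fibrillar collagen, stood at 54.2, 22.2 and 34.3 CPM in MM HepOrgs against 0.0240, 3.14 and 0.276 CPM (5.04 ± 1.65, adjusted p = 0.0255; 7.60 without fresh replicate 2, lost without MM HepOrg replicate 1 or fresh replicate 1 or 3). Lymphocyte markers summed to at most 2.67 CPM in every library, and neutrophil and red cell markers to at most 65.9 CPM, in fresh replicate 2. All 10 hepatocyte markers were detected in each of the 6 libraries.

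**Figure D5:**
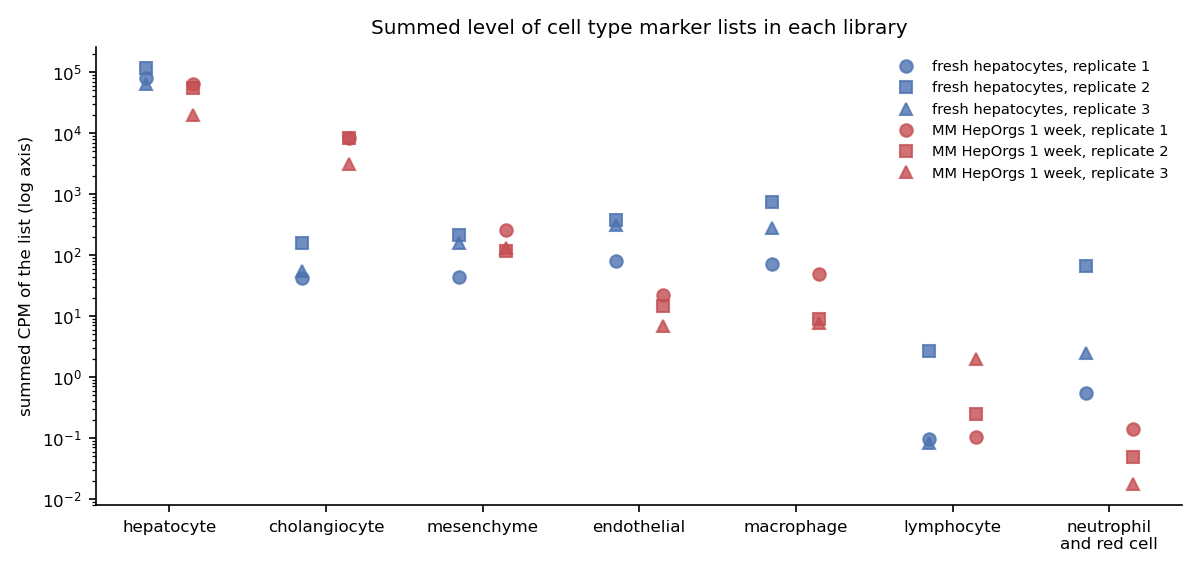
Summed CPM of each cell type marker list in each library (y axis, log scale), with shapes marking replicates. Cholangiocyte markers lie above the fresh libraries in every MM HepOrg library, endothelial and macrophage markers below them, and fresh replicate 2 is the highest fresh library for every list.

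Keratins and vimentin rose in 5 of 7 genes tested, with none lower (median 3.56, or 3.24 with 1 gene at its floor-based bound). Krt8, a hepatocyte keratin, rose from 310, 477 and 333 CPM to 1144, 1301 and 795 CPM (1.53 ± 0.24, adjusted p = 2.94e-04). Of 27 actin, tubulin and myosin genes 11 rose and 1 fell (median 1.00), and 16 rose without fresh replicate 2 (median 1.44). Tmsb10, an actin monomer-binding protein, went from 0.887, 5.38 and 4.06 CPM to 528, 608 and 752 CPM (7.51 ± 0.62, adjusted p = 1.50e-06), while Actb did not pass (0.08 ± 0.21, adjusted p = 0.785). Of 15 annexins and S100 proteins 8 rose and 1 fell (median 1.30). Anxa2, a membrane-cytoskeleton linker, went from 1.63, 9.22 and 7.62 CPM to 791, 660 and 968 CPM (7.03 ± 0.55, adjusted p = 9.28e-07).

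Junction genes moved both ways: 11 of 27 rose and 7 fell (median -0.18). Cldn4, a tight junction claudin of ducts and gut, went from 3 reads in the fresh libraries together to 13.1, 7.01 and 33.5 CPM, a ratio of 616 with an exact Poisson interval of 211 to 2986 for counting error. Gjb1, connexin 32, the main hepatocyte gap junction protein, fell from 913, 1397 and 1158 CPM to 308, 273 and 198 CPM (-2.15 ± 0.25, adjusted p = 1.94e-05). Ceacam1, an apical adhesion molecule, fell by 2.52 ± 0.33 (adjusted p = 6.62e-05), and Anpep, a canalicular peptidase, did not pass (-0.23 ± 0.32, adjusted p = 0.585). On the matrix side, 15 of 26 basement membrane and integrin genes rose and 4 fell (median 1.01). Lama3, the alpha chain of an epithelial laminin, fell from 12.2, 8.28 and 17.3 CPM to 0.474, 0.779 and 1.01 CPM (-3.98 ± 0.43, adjusted p = 1.36e-05). Fn1, fibronectin, rose by 1.24 ± 0.24 (adjusted p = 0.00120). YAP target genes rose in 8 of 15 cases and fell in 3 (median 1.36, or 0.97 with 1 gene at its floor-based bound), and 5 rose without fresh replicate 2. Ankrd1, a mechanosensitive target, rose by 6.65 ± 0.90 (adjusted p = 8.35e-05) and Dlc1, a GTPase-activating protein, fell by 3.66 ± 0.36 (adjusted p = 6.08e-06).

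Of the cell cycle genes, 7 of 32 rose, a share near the 21.5% over all genes tested, and 3 fell (median 0.40). The median was -0.00 without MM HepOrg replicate 2, 0.83 without replicate 3 and 1.05 without fresh replicate 2. Mki67, the marker of cycling cells, was at or under 2.46 CPM in all 6 libraries and did not pass (0.94 ± 0.84, adjusted p = 0.390). Ccnd2, a G1 cyclin, went from 1.10, 7.14 and 4.48 CPM to 68.7, 40.4 and 105 CPM (4.07 ± 0.62, adjusted p = 1.94e-04). Ccnd1, the hepatocyte G1 cyclin, had 116, 16.8 and 119 CPM in fresh cells and 13.4, 16.1 and 29.8 CPM in MM HepOrgs (-2.09 ± 0.75, adjusted p = 0.0389), with overlap through fresh replicate 2, and the call was lost without MM HepOrg replicate 1 or 2 or fresh replicate 1 or 3 (adjusted p up to 0.117). Growth factor signalling genes rose in 11 of 29 cases and fell in 7 (median 0.49). In that list 7 rose without MM HepOrg replicate 3, 6 rose without fresh replicate 3 and 3 fell without fresh replicate 1. Areg, an EGFR ligand, rose by 6.53 ± 1.12 (adjusted p = 4.88e-04) and was 42.7 CPM in MM HepOrg replicate 3 against 4.32 and 5.77 CPM in the others. Fgfr4, the hepatocyte FGF receptor, fell by 3.31 ± 0.44 (adjusted p = 7.38e-05).

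Targets of p53 and senescence genes were higher: 14 of 17 tested rose and 1 fell (median 1.61), and 13 to 15 rose with any 1 library left out. Cdkn1a, the cyclin-dependent kinase inhibitor p21, went from 0.983, 4.59 and 4.56 CPM to 152, 141 and 253 CPM (5.74 ± 0.49, adjusted p = 1.87e-06). Cdkn2b, the related inhibitor p15, went from 0.551, 0.275 and 0.221 CPM to 28.2, 32.1 and 59.7 CPM (6.63 ± 0.53, adjusted p = 1.10e-06), and Phlda3, a p53-induced Akt inhibitor, from 0.0719, 0.942 and 0.414 CPM to 42.5, 31.6 and 114 CPM (7.00 ± 0.83, adjusted p = 2.84e-05). Cdkn2a was too low to test. Bbc3, the p53-induced killer PUMA, fell (-1.11 ± 0.41, adjusted p = 0.0448), a call lost without any of these libraries but fresh replicate 1 (adjusted p up to 0.205).

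Amino acid stress and antioxidant genes rose in part. In the ATF4 and unfolded protein response list 12 of 27 rose and 2 fell (median 0.45), and the members with the highest fold changes were targets of ATF4. Psat1 and Phgdh, both enzymes of serine synthesis, went from at most 1.61 and 2.30 CPM in any fresh library to at least 77.8 and 61.1 CPM in every MM HepOrg library (6.96 ± 0.56 and 6.68 ± 0.71). The endoplasmic reticulum chaperone Hspa5 did not pass (0.29 ± 0.25, adjusted p = 0.386), and Herpud1, of the unfolded protein response, fell by 1.70 ± 0.37 (adjusted p = 0.00245). Asns, asparagine synthetase, stood at 1.17, 98.7 and 1.38 CPM in fresh cells and at 340, 126 and 380 CPM in MM HepOrgs; it did not pass (adjusted p = 0.0534) and did so without fresh replicate 2 (adjusted p = 1.06e-06). Of 16 NRF2 targets 8 rose and 2 fell (median 0.49), led by Slc7a11, with Nqo1, a quinone reductase, up by 3.24 ± 0.46 (adjusted p = 1.17e-04) and Gclm, the glutathione synthesis modifier subunit, lower (-1.71 ± 0.34, adjusted p = 0.00137).

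Immediate early genes, which isolation by perfusion is known to induce, depended on single libraries. In the list 5 of 27 rose and 7 fell (median -0.80), beside 21.5% rising and 21.3% falling over all genes tested. Without fresh replicate 1, 10 rose and 6 fell, without fresh replicate 2, 13 fell, and without MM HepOrg replicate 1, 2 or 3, 4 fell. Jun, an AP-1 subunit, was 1100 CPM in fresh replicate 1 against 144 and 216 CPM in the others and 132, 177 and 102 CPM in MM HepOrgs (-1.83 ± 0.69, adjusted p = 0.0466). Its value was -0.37 without fresh replicate 1 (adjusted p = 0.603), and the call was also lost without MM HepOrg replicate 1, 2 or 3 (adjusted p up to 0.139). Egr1, another such gene, did not pass (-0.78 ± 0.66, adjusted p = 0.364) and rose without fresh replicate 1 (1.05, adjusted p = 0.0461). Ier3, a stress-induced survival gene, rose regardless, from 0.743, 1.49 and 1.44 CPM to 101, 163 and 154 CPM (6.79 ± 0.39, adjusted p = 1.22e-07).

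Of 20 chemokine and NF-kB target genes 8 rose and 1 fell (median 0.62), with 3 lower without any 1 MM HepOrg library or fresh replicate 1. Of 23 interferon and antigen presentation genes 2 rose and none fell (median 0.39), with 7 rising without fresh replicate 2 and 4 without MM HepOrg replicate 3. Ccl20, a chemokine for dendritic and T cells, had no count in fresh cells and 0.859, 0.876 and 0.454 CPM in MM HepOrgs, at least 8.04-fold higher. Cxcl12, a stromal chemokine, fell from 527, 266 and 362 CPM to 54.3, 28.5 and 15.1 CPM (-3.56 ± 0.46, adjusted p = 5.46e-05). Of 14 iron and metallothionein genes 6 fell and none rose (median -0.39), and 3 fell without fresh replicate 1. B2m, the light chain of class I molecules, is listed at 0 in all 6 libraries although its heavy chain partners H2-K1 and H2-D1 stood at 955 CPM or more and at 1344 CPM or more in each of them, so a gene listed at 0 in this table is not shown to be silent.

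Of 90 nuclear-encoded respiratory chain subunits 39 fell and 4 rose (median -0.42), with 2 higher without MM HepOrg replicate 1 or 2 or fresh replicate 3, against 12 of 13 mitochondrially encoded mRNAs falling (median -1.48). Without MM HepOrg replicate 3, 28 of the nuclear-encoded subunits fell (median -0.33). mt-Cytb fell from 12320, 14673 and 13684 CPM to 3518, 2396 and 1756 CPM (-2.41 ± 0.40, adjusted p = 3.78e-04). Ndufa4l2, a hypoxia-induced subunit paralog, rose by 6.52 ± 0.47 (adjusted p = 5.29e-07). Of 78 ribosomal protein genes 43 rose and none fell (median 0.64), and 21 rose without MM HepOrg replicate 3, which was the highest MM HepOrg library for Rps14 (802 CPM against 428 and 409). Rps14 rose by 1.44 ± 0.31 (adjusted p = 0.00252). Of 38 proteasome subunits 8 fell and 3 rose (median -0.26), and 3 fell without MM HepOrg replicate 3 or fresh replicate 3 and 4 without MM HepOrg replicate 2. With all libraries, the share of proteasome subunits that fell was near the 21.3% over all genes tested. The share of mitochondrial transcripts given above moves with the respiratory chain values, and its part in them was not tested.

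The other HepOrg groups were set beside these values. Their comparisons share the fresh libraries, so values are given side by side. The median of the urea cycle list was -3.62 in MM at 1 week, -4.01 in MM at 2 weeks, -4.28 in HM-Wnt at 1 week and -4.32 in HM-Wnt at 2 weeks. For amino acid catabolism the medians were -3.27, -3.31, -4.57 and -4.73, for cholangiocyte markers 4.06, 4.48, 3.97 and 4.85, and for p53 targets 1.61, 1.68, 1.87 and 2.02 in the same order. The cholangiocyte medians carry the limit of the count filter given above. Fatty acid synthesis had medians of 0.48 and 0.38 in MM and -0.99 and -0.82 in HM-Wnt.

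In the direct comparison of MM with HM-Wnt at 1 week, 385 of 12989 genes (2.96%) differed, 229 (1.76%) higher and 156 (1.20%) lower in MM HepOrgs. Same-numbered libraries of these groups deviated together weakly (r from 0.17 to 0.30). With the replicate as a block 1232 (9.48%) differed, 726 (5.59%) higher and 506 (3.90%) lower. The total of 385 fell to 42 without MM HepOrg replicate 1, 72 without replicate 2, 130 without HM-Wnt replicate 2 and 110 without HM-Wnt replicate 3, and was 608 without MM HepOrg replicate 3. Genes higher in MM included Apoa5 (3.68 ± 0.51, adjusted p = 0.00759) and Cyp8b1 (4.38 ± 0.65, adjusted p = 0.0101). In the fatty acid synthesis list 6 of 16 were higher in MM, among them Fasn, fatty acid synthase (1.67 ± 0.27, adjusted p = 0.0122). In the cell cycle list 6 of 32 were lower. Lower in MM were Afp (-4.61 ± 1.05, adjusted p = 0.0410), Gpc3 (-2.62 ± 0.58, adjusted p = 0.0371) and Slc1a2 (-3.85 ± 0.47, adjusted p = 0.00570). Urea cycle, p53, glycolysis and cholangiocyte lists held no gene past the threshold here. With the block, 1 gene each of the urea cycle, p53 and cholangiocyte lists passed, and none of the glycolysis list.

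Between 1 and 2 weeks in MM, 2 of 12989 genes (0.0154%) passed, both lower at 1 week, and 1334 had an unadjusted p under 0.05. By DESeq2 130 were higher and 178 lower. The count was 0 without MM HepOrg replicate 2 of week 1 or replicate 1 of week 2, 1 without replicate 2 or 3 of week 2, and 11 without replicate 3 of week 1. The 2 genes are named here after their values were seen. Aspg, an asparaginase, was at 197, 152 and 139 CPM in fresh cells, 9.35, 9.54 and 9.82 CPM at 1 week and 35.5, 30.1 and 23.7 CPM at 2 weeks (-1.65 ± 0.19, adjusted p = 0.0202). Acot2, a mitochondrial thioesterase, was at 1.25, 0.353 and 0.635 CPM in fresh cells, 3.77, 2.56 and 2.39 CPM at 1 week and 10.0, 9.76 and 10.5 CPM at 2 weeks (-1.80 ± 0.21, adjusted p = 0.0202).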

How the data were processed

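Bulk RNA-seq libraries (SMARTseq2, Nextera) were aligned by the authors with STAR 2.7.11b to GRCm39 (Ensembl release 109), and reads were counted per gene with featureCounts 2.0.6. The deposited table holds whole counts and the authors' TPM values for 37 libraries and 21850 features. Of these, 27 libraries were matched to labels by name and 10 were not used. Gene lengths behind TPM lay within 5% of the whole gene span for 80.8% of genes, so counts may include intronic reads and levels were not compared between genes. Strand use in counting is not given in the sources used here, so reads of overlapping genes cannot be told apart.

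Counts were filtered with filterByExpr (minimum count 10, minimum total 15), TMM-scaled and tested with edgeR 4.0.16 in R 4.3.3 (glmQLFit with robust estimation, glmQLFTest, prior count 2, Benjamini-Hochberg adjusted p under 0.05). Comparisons with fresh cells were fitted over 15 libraries of 5 groups, those between HepOrgs over 12 libraries of 4 groups. The SE is the fold change divided by the root of the F statistic. Genes without counts in a group were given a floor of 3 counts per library. Intervals and floors cover counting error only. In simulated data edgeR recovered 77.5% of 200 genes changed by 2 on the log2 scale in MM HepOrgs versus fresh cells (13214 genes), with 4 unchanged genes called. The real comparison held far more changed genes, of varied size, and libraries that stood apart. These rates therefore do not describe its performance. DESeq2 1.42.0, limma 3.58.1 on log2(TPM + 1), RLE size factors, other filters, other sets of libraries, a replicate block and leaving out each library were alternatives.

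The members and lists were chosen with earlier results of these data known. Named were genes the study discusses, list anchors, up to 2 called members with the highest and 2 with the lowest fold change and the most abundant member of each list, and the 12 genes at each end of the ranking among non-overlapping ones whose mean log2 CPM reached 5. Some genes that this rule names are not reported here. For MM and HM-Wnt HepOrgs at 1 week, same-numbered libraries deviated from their group means together (r from 0.17 to 0.30). Libraries of other numbers had r from -0.36 to -0.01. Deviations within a group cancel out, so both ranges depend on each other, and a pairing by replicate number was not tested. Coordinates are from GENCODE M39, and promoters from RefSeq.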

Additional observations from a re-analysis of the deposited data

Results flagged for a closer look

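These genes differed between MM and HM-Wnt HepOrgs at 1 week by edgeR's quasi-likelihood test of the difference itself. Values are log2 fold changes of MM over HM-Wnt HepOrgs.

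Opposite changes from fresh hepatocytes that each passed the test were found in 5 genes, all named after their values were seen. Hspb6, a small heat shock protein, rose in MM (0.73) and fell in HM-Wnt (-0.73), a difference of 1.45 (adjusted p = 0.0039). Blvrb, biliverdin reductase B, had 0.86 and -0.46 (difference 1.31, adjusted p = 0.00672). Trim7, a tripartite motif protein, had 0.96 and -1.07 (difference 2.00, adjusted p = 0.0223). Hace1, a ubiquitin ligase, had -0.60 and 0.53 (difference -1.15, adjusted p = 0.0204). Cyp2c69, a P450 with close paralogs, had -2.64 and 3.94 (difference -6.61, adjusted p = 0.0225), with 0.383, 0.0785 and 0.829 CPM in fresh cells and 0.0175, 0 and 0.0699 CPM in MM HepOrgs, and in HM-Wnt HepOrgs it held 18.2 CPM in replicate 2 against 2.64 and 1.38 in the others.

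Other genes were higher in MM. The differences were 3.68 for Apoa5, 1.37 for Apoa4, 4.38 for Cyp8b1, 2.74 for Cyp2s1 and 1.83 for Slc47a1. They were 1.67 for Fasn, 1.55 for Scd1, 0.97 for Vnn1 and 1.22 for Acot2. The nuclear receptors Nr0b2 and Nr1i3 were higher by 2.45 and 1.84, and Aspg by 1.01.

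Lower in MM were Afp (-4.61), Slc1a2 (-3.85), Gpc3 (-2.62), Igfbp1 (-2.36), Cdh17 (-1.50) and Egr1 (-1.40).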

How the results depend on the processing

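For MM HepOrgs versus fresh hepatocytes, the 5726 genes called became 1999 with all 27 libraries in the fit and 4704 to 5574 with 1 library left out. For MM versus HM-Wnt HepOrgs at 1 week, the 385 became 1412 by DESeq2, 29 with only the 2 groups, 1 with all 27 libraries, 1232 with the replicate block, 253 at a log2 fold change of at least 1, and 42 to 608 with 1 library left out. For 1 versus 2 weeks in MM, the 2 became 308 by DESeq2, 4 with no count filter, 4 on log2(TPM + 1), 14 with only the 2 groups, 0 with all 27 libraries, and 0 to 11 with 1 library left out. The cause was not tested.

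Same-numbered libraries of MM HepOrgs and fresh cells did not deviate together (r from -0.11 to 0.02, other numbers -0.05 to 0.08), and the replicate block gave 6065 calls. Whether replicate numbers paired 1 with 2 weeks in MM is unclear. There r of same-numbered libraries (0.07 to 0.30) overlapped that of other numbers (-0.31 to 0.23), and the block gave 3 calls. Beyond the counts given, the block changed the call of 2 of 143 named genes, Bbc3 and Lgr5 (adjusted p of 0.0612 and 0.0613).

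Of 127 called genes named, 85 kept their call in all alternatives and 1 reversed, Abcc2, at 0.08 on log2(TPM + 1). With all 27 libraries 39 lost their call: Abcb11, Abcc2, Acot2, Afp, Alb, Apoa1, Apoa4, Apob, Arg1, Bbc3, Ccnd1, Cdh1, Cebpa, Cpb2, Cpt1a, Cry1, Cxcl12, Cyp1a2, Cyp2e1, Cyp39a1, Cyp7a1, Cyp8b1, Fbp1, Fgf21, Gstm3, Hamp, Igfbp1, Jun, Krt19, Krt8, Lgr5, Notum, Nr1d1, Nr1i3, Scd1, Serpina1e, Slc10a1, Sox9 and Ttr. The other reversals were in genes that did not pass. With 1 library left out, Anpep ranged from -0.46 to 0.03, Axin2 from -0.43 to 0.30, Egr1 from -1.28 to 1.05, Glul from -0.52 to 0.20 and H2-K1 from -0.20 to 0.22. On log2(TPM + 1), Anpep was 0.32, Egr1 0.64, Glul 0.45 and H2-K1 0.61. H2-K1 was 0.01 with 10 counts required in every library and 0.00 with only the 2 groups.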
